A study of Homo sapiens with 44 samples.

Results

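The genes described here are 7 metallothioneins and 3 zinc transporters, measured by RNA sequencing in Ccd-18Co, a human colon fibroblast line, after exposure to single cytokines. They were taken by symbol from a table of 40663 gene rows, and 10 of the 10 symbols were row symbols: *MT1A*, *MT1E*, *MT1F*, *MT1G*, *MT1M*, *MT1X*, *MT2A*, *SLC39A8*, *SLC39A14* and *SLC30A1*. The 44 libraries form 11 groups of 4: unstimulated cells and cells given TNF, IL-1β, IFNα, IFNγ, TGF-β1, IL-6, OSM (oncostatin M), IL-13, IL-17A or IL-22. All groups, the unstimulated one included, were kept without serum for 72 h. The cytokine groups were then held for 24 h with cytokine at 10 ng/ml. For the unstimulated cells the labels give no time after the 72 h. IL-1β alone was given at a lower dose, 0.1 ng/ml per the labels and 0.01 ng/ml per a legend of the study. All libraries come from 1 line in culture, and the labels do not say whether the replicates were separate cultures, so each p-value measures only the spread between these libraries.

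Metallothioneins are very small, cysteine-rich proteins that bind zinc and copper in the cytosol and buffer the pool of free metal. Their genes lie in a cluster on chromosome 16 and are switched on by the metal-sensing factor MTF1, which binds metal response elements in their promoters, and in many tissues also by glucocorticoids and inflammatory signals. Zinc enters the cytosol through transporters of the SLC39 (ZIP) family and leaves it through the SLC30 (ZnT) family. ZIP14 (*SLC39A14*) and ZIP8 (*SLC39A8*) are importers that also carry manganese and iron, and ZnT1 (*SLC30A1*) is the exporter of the plasma membrane.

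The libraries held between 742173 and 2213424 estimated counts assigned to genes, with a median of 1480883. Expression is given as CPM, the counts of a gene scaled to a common library size of 1e6. A gene is treated here as detected in a library above 3 counts. That floor corresponds to 1.39 to 3.85 CPM depending on the library and covers counting error only. The tissue label was checked with marker lists. All 9 fibroblast markers were tested and summed to between 17350 and 53230 CPM per library, whereas 4 endothelial markers summed to at most 2.65 CPM, and *CDX2* of the epithelial list, *KDR* of the endothelial list and *CD3E* of the leukocyte list were at 0 in every library. The 5 epithelial markers summed to at most 26.6 CPM, nearly all of it *VIL1*, and the 5 leukocyte markers to at most 73.8 CPM, nearly all of it *CD68*. The 4 smooth muscle markers summed to between 225 and 1139 CPM, mostly *ACTG2*, with counts of *DES* in 1 library.

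Of the 10 genes, 6 passed the filter on low counts and were tested among 9513 genes: *MT2A*, *MT1X*, *MT1E*, *SLC39A14*, *SLC39A8* and *SLC30A1*. A gene is called here where the adjusted p of edgeR's quasi-likelihood test against unstimulated cells was under 0.05, with Benjamini-Hochberg adjustment over all tested genes of that comparison. Over the 10 cytokines this gave 60 gene and cytokine pairs, of which 14 were called higher and 1 lower than in unstimulated cells. Over all tested genes, 2.55% of such pairs were called higher and 2.89% lower. Without unstimulated replicate 2 the 14 became 8, while the pairs called higher over all tested genes went from 2427 to 1778. 5 of the 14 higher pairs and the lower one also passed the fold threshold of the study, an absolute log2 fold change above 1.5. They were 3 pairs with IL-1β (*MT2A*, *MT1X* and *SLC39A14*), where 2.78% of all tested genes passed it in either direction, 1 with IFNγ (3.53%), 1 with TNF (4.19%) and 1 with IL-13 (1.47%). *MT1X* with IL-1β fell below the threshold without unstimulated replicate 2 (1.44) or IL-1β replicate 4 (1.43). All 10 cytokine groups are compared with the same 4 unstimulated libraries, so the 10 sets of fold changes are not independent of each other.

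The calls were unevenly spread over the cytokines. IL-1β raised 4 of the 6 tested genes (*MT2A*, *MT1X*, *MT1E* and *SLC39A14*), where 3.46% of all tested genes were called higher. IFNγ raised the same 4, against 5.52% of all tested genes, and TNF raised 3 (*MT2A*, *MT1X* and *SLC39A14*), against 5.37%. IL-17A and TGF-β1 each raised 1, *MT2A*, against 0.599% and 2.61% of all tested genes. IFNα raised 1, *SLC30A1*, against 4.99%. IL-13 lowered 1, *MT2A*, against 2.4% of all tested genes called lower.

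For IL-6, IL-22 and OSM edgeR called 0 of the 6. At an unadjusted p under 0.05 there were 0 of 6 for IL-6, 1 for IL-22 (*MT2A*) and 1 for OSM (*MT1X*), where the shares of all tested genes were 2.45%, 10.9% and 15.3%. DESeq2 called 0 for IL-6 and OSM and 1 for IL-22, *MT2A*, with an adjusted p of 0.0126. For IL-22 DESeq2 called 112 of all tested genes and left 7193 without an adjusted p. Among all tested genes, edgeR called 0.0105% higher for IL-6, 0% for IL-22 and 1.42% for OSM. The median log2 fold change of the 6 genes was 1.53 with IL-1β, 1.26 with IFNγ, 1.24 with TNF, 0.75 with TGF-β1, 0.60 with OSM, 0.59 with IL-17A, 0.44 with IFNα, 0.36 with IL-22, -0.16 with IL-6 and -0.58 with IL-13. The medians over all tested genes lay between -0.05 (IL-13) and 0.00 (OSM). With IL-13 *MT2A* was the 1 gene called, and *SLC39A14* (0.49) and *SLC39A8* (0.01) were not below 0.

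**Figure D1:**
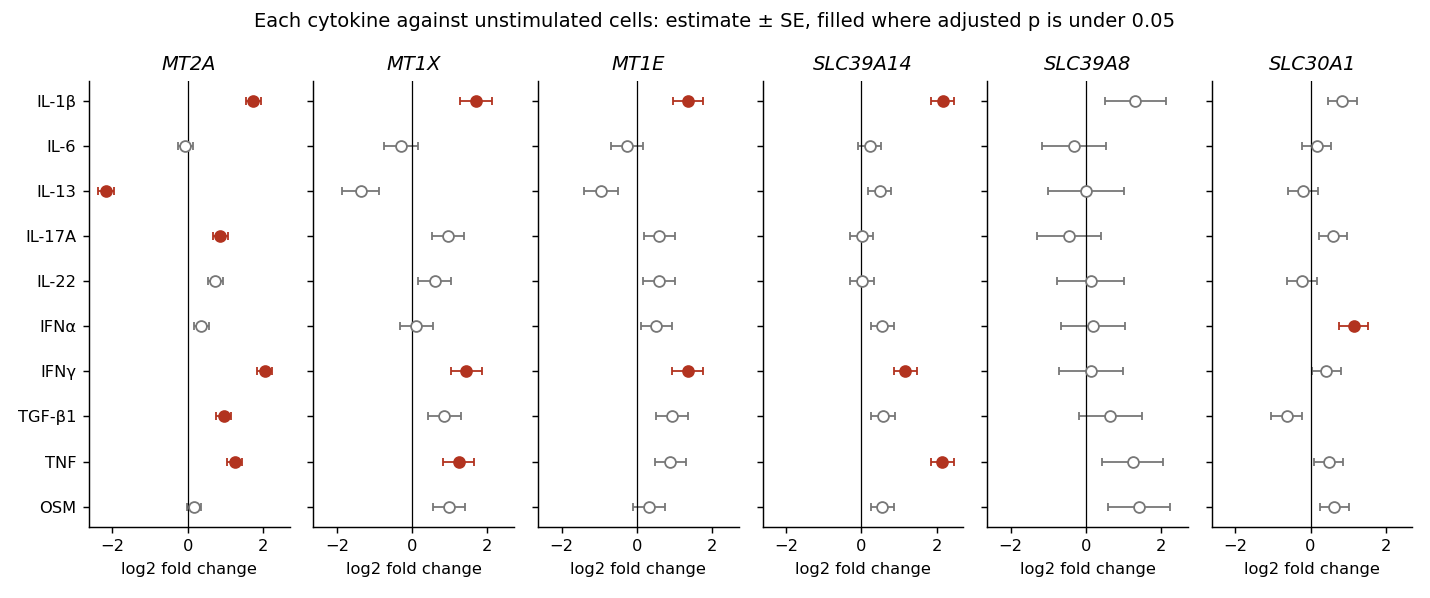
Log2 fold change of each of the 6 tested genes against unstimulated cells (x axis) for each cytokine (y axis), as the edgeR estimate ± SE, filled red where the adjusted p was under 0.05. 15 of the 60 points are filled, *SLC39A8* has none, and the single filled point left of 0 is *MT2A* with IL-13.

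Fibroblast markers moved with some of the same cytokines. Of the 9, 5 were called lower with IL-1β (3.92% of all tested genes), 6 with TNF (6.09%) and 4 with TGF-β1 (3.08%). With IFNγ (5.13%), IFNα (4.86%) and IL-17A (0.925%) 2 each were called lower. 1 each was called higher with IL-13 (1.53% of all tested genes), TGF-β1 (2.61%) and OSM (1.42%). Their summed level was 24040 to 32370 CPM with IL-1β, 21490 to 27750 CPM with TNF, 17350 to 34470 CPM with IFNγ and 27000 to 32830 CPM with TGF-β1, against 30190 to 42160 CPM in unstimulated cells. With IL-13 the sum was 41300 to 53230 CPM. Leukocyte markers summed to 38.0 to 73.8 CPM with IFNα and 8.31 to 20.6 CPM with IFNγ, against at most 7.83 CPM in unstimulated cells, while *PTPRC*, the pan-leukocyte marker, had 13 counts over all 44 libraries. Smooth muscle markers summed to 225 to 390.0 CPM with IL-1β, 289 to 372 CPM with IL-17A and 282 to 473 CPM with IFNγ. In unstimulated cells they summed to 343 to 1101 CPM. Of the 3 tested, 1 was called lower with IL-1β, where 3.92% of all tested genes were called lower. The part of these shifts in the results was not tested. In bulk RNA a change in the share of cells that express a gene and a change in RNA per cell cannot be told apart.

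*MT2A* is the most widely expressed human metallothionein. It lies on chromosome 16 from 56608584 to 56609497 on the plus strand (GRCh38, GENCODE 44), a protein-coding gene of 3 exons with a transcript of 401 bases. In unstimulated cells it stood at 593 CPM per kb of transcript, above 98.7% of the tested genes and 122nd from the top of 9491 with a known length. *MT1X* stood at 20.6 and *MT1E* at 13.9 CPM per kb on the same scale. *MT2A* made up between 80.8% and 95.8% of the summed CPM of the 7 metallothioneins in every library.

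The RefSeq promoter table (GRCh38.p14) held 4 of the 10 genes. The 250 bases before the transcript start of *MT2A* (chr16:56608334-56608583, plus strand) and *MT1X* (chr16:56682220-56682469, plus strand) are given 5′ to 3′ on the gene's strand, since these are the tested metallothioneins in that table and the element is the known route of their induction by metal. Capitals mark the core of the metal response element, TGCACNC or TGCGCNC, on either strand, so that a match on the other strand reads GNGTGCA or GNGCGCA.
MT2A: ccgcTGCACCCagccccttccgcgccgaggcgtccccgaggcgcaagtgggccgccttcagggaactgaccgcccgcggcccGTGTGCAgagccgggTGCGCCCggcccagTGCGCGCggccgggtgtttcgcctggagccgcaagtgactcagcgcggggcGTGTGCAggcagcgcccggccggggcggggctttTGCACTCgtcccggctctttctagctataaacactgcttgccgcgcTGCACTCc
MT1X: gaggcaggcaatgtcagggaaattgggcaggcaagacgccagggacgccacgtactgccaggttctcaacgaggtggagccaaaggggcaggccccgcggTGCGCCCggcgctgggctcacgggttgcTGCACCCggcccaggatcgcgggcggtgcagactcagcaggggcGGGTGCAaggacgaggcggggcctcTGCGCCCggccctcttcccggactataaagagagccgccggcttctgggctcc

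*MT2A* had 7 matches and *MT1X* had 4. Of 35116 RefSeq promoters searched over the same length, 24.8% held at least 1 match, 6.48% at least 2, 0.37% at least 4 and 0.0313% at least 7. *SLC30A1* held 1 match, and of the 3 starts listed for *SLC39A8*, 1 held 1 match and 2 held none. The palindrome bound by STAT factors, TTCNNNGAA, the same on both strands, was found once, in *MT2A*, 194 bases before the start, and in 6.57% of all promoters. It overlapped no metal response element core. A match is a run of letters and was not shown to be bound in these cells.

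**Figure D2:**
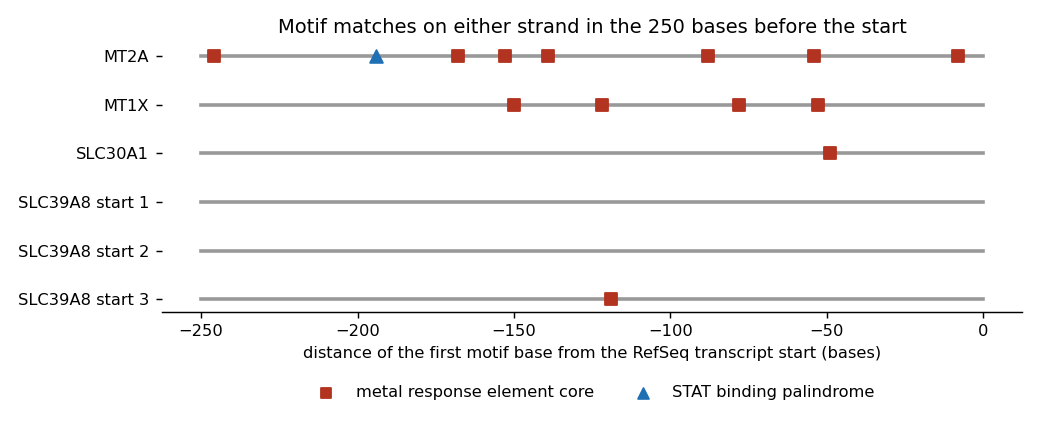
Motif matches in the 250 bases before each RefSeq transcript start (x axis, distance in bases of the first motif base from the start) for the 4 genes in the promoter table, with 3 starts for *SLC39A8*. Red squares are metal response element cores and the blue triangle is the STAT palindrome; *MT2A* carries 7 squares and *MT1X* carries 4.

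In the paragraphs on single genes, a group whose 4 libraries all lie on 1 side of the 4 unstimulated ones is named as not overlapping. Over all tested genes this held for 12.8% with IL-1β, 11.9% with IFNγ, 14.1% with TNF, 9.28% with TGF-β1, 7.06% with IL-17A, 9.82% with IL-13, 10.4% with OSM, 4.9% with IL-22 and 15% with IFNα.

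*MT2A* rose with 5 cytokines and fell with 1. In the unstimulated libraries its CPM was 253, 168, 279 and 251. With IFNγ it was 862, 654, 1175 and 1242, and with IL-1β it was 804, 675, 799.8 and 914. All 8 of these stimulated libraries lay above the highest unstimulated one. The mean was 238 ± 48.0 CPM (SD, n = 4) in unstimulated cells, 983 ± 275 CPM with IFNγ and 798 ± 97.7 CPM with IL-1β. The log2 fold change was 2.05 with IFNγ (SE 0.20, adjusted p = 1.24e-10) and 1.75 with IL-1β (SE 0.20, adjusted p = 1.18e-08).

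With TNF *MT2A* stood at 533, 591, 657 and 487 CPM, with TGF-β1 at 469, 519, 504 and 365 CPM, and with IL-17A at 393, 416, 548 and 381 CPM. None of these libraries overlapped the unstimulated ones. The log2 fold changes were 1.25 with TNF (SE 0.20, adjusted p = 9.18e-06), 0.96 with TGF-β1 (SE 0.20, adjusted p = 0.00125) and 0.87 with IL-17A (SE 0.20, adjusted p = 0.0117). The IL-17A call was lost without unstimulated replicate 2 (0.74, adjusted p = 0.102) or without IL-17A replicate 3 (0.75, adjusted p = 0.0675).

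IL-13, a type 2 cytokine, moved *MT2A* the other way. Its 4 libraries held 43.1, 32.4, 56.0 and 80.8 CPM, each below the lowest unstimulated library. The mean was 53.1 ± 20.8 CPM, and *MT2A* fell by 2.17 on the log2 scale (SE 0.21, adjusted p = 1.02e-09). Between the group with the lowest mean and the group with the highest, IL-13 and IFNγ, *MT2A* differed by 18.5 times.

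The other 4 cytokines gave no call. With IL-22 *MT2A* stood at 357, 514, 409 and 302 CPM, all above the unstimulated libraries, and the log2 fold change of 0.73 (SE 0.20) had an unadjusted p of 0.000593 and an adjusted p of 0.115. With IFNα it stood at 295, 288, 352 and 289 CPM, again all above the unstimulated range, with a log2 fold change of 0.36 and an adjusted p of 0.293. OSM libraries held 296, 289.9, 221 and 264 CPM and IL-6 libraries 213, 201, 241 and 254 CPM, both overlapping the unstimulated range, with log2 fold changes of 0.17 (adjusted p = 0.757) and -0.07 (adjusted p = 1).

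In the order of the means, IFNγ came first, then IL-1β, TNF, TGF-β1, IL-17A, IL-22, IFNα, OSM, unstimulated, IL-6 and IL-13. Of the 10 pairs of neighbours in that order, the ranges of 8 overlapped. The pairs without overlap were IL-1β with TNF and IL-6 with IL-13.

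*MT1X* and *MT1E* code for isoforms of the metallothionein 1 type. *MT1X* lies on chromosome 16 from 56682470 to 56684196, with 3 exons and a transcript of 404 bases, and a long non-coding RNA overlaps it on the same strand in the annotation. *MT1E* lies from 56625475 to 56627112 on the same chromosome, with 2 exons and a transcript of 746 bases. Both were measured in every library with few counts, 3 to 64 for *MT1X* and 3 to 54 for *MT1E*, so their values are less precise than those of *MT2A*.

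*MT1X* stood at 7.34, 2.92, 14.8 and 8.20 CPM in unstimulated cells. It was 25.2, 17.2, 24.8 and 41.5 CPM with IL-1β, 15.8, 23.3, 31.2 and 20.6 CPM with IFNγ, and 28.2, 13.8, 24.8 and 11.8 CPM with TNF. The IL-1β and IFNγ libraries lay above the unstimulated ones, and the TNF libraries overlapped them. The log2 fold changes were 1.70 with IL-1β (SE 0.42, adjusted p = 0.00491), 1.44 with IFNγ (SE 0.42, adjusted p = 0.0189) and 1.23 with TNF (SE 0.42, adjusted p = 0.0482).

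The TNF call of *MT1X* was lost in 5 of 8 fits that left out a library: without unstimulated replicate 1, 2 or 4 and without TNF replicate 1 or 3, with adjusted p up to 0.189. The IFNγ call was lost without unstimulated replicate 2 (1.19, adjusted p = 0.095) or IFNγ replicate 3 (1.28, adjusted p = 0.0743). With IL-13 *MT1X* held 2.66, 2.32, 4.04 and 3.55 CPM, from 3 to 7 counts, at or near the floor of 3. These libraries overlapped unstimulated replicate 2 alone, which held 4 counts. The log2 fold change was -1.37 (SE 0.48, unadjusted p = 0.00703, adjusted p = 0.109). In the other 6 groups *MT1X* ranged from 4.41 CPM (IFNα) to 22.4 CPM (IL-17A), with log2 fold changes from -0.30 (IL-6) to 0.98 (OSM).

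*MT1E* stood at 9.79, 7.29, 14.1 and 10.2 CPM in unstimulated cells. It was 24.2, 23.9, 24.1 and 35.0 CPM with IL-1β and 22.6, 27.4, 24.3 and 32.0 CPM with IFNγ. No library of either group overlapped the unstimulated range. The log2 fold change was 1.37 with IL-1β (SE 0.41, adjusted p = 0.0261) and 1.36 with IFNγ (SE 0.41, adjusted p = 0.0232).

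The IL-1β call of *MT1E* was lost without IL-1β replicate 4 (1.22, adjusted p = 0.1) and without unstimulated replicate 1, 2 or 4, with adjusted p up to 0.101. The IFNγ call was lost without unstimulated replicate 2 (1.24, adjusted p = 0.086) or 4 (1.37, adjusted p = 0.0512) or IFNγ replicate 4 (1.27, adjusted p = 0.0719). *MT1E* ranged from 1.99 to 10.7 CPM with IL-13 (log2 fold change -0.94, adjusted p = 0.293) and from 9.75 to 37.0 CPM with TNF (0.89, adjusted p = 0.171). With IFNα all 4 libraries lay between 14.3 and 15.6 CPM, above the unstimulated range, with a log2 fold change of 0.51 and an adjusted p of 0.538.

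The other 4 metallothioneins were close to absent. Over all 44 libraries *MT1A* had 15 counts in 8 libraries, *MT1F* 41 counts in 13, *MT1G* 3 counts in 1 and *MT1M* 9 counts in 7. *MT1F* exceeded 3 counts in 4 libraries, with its highest count, 10, in IL-1β replicate 4, and it was at 0 in all unstimulated libraries. Its mean with IL-1β was 2.80 ± 3.03 CPM (SD, n = 4), which overlapped 0. *MT1A* exceeded 3 counts once, with 5 in IL-22 replicate 2, while *MT1G* and *MT1M* never did. These 4 genes lie between *MT1E* and *MT1X* on chromosome 16: *MT1M* from 56632659 to 56633981, *MT1A* from 56638666 to 56640087, *MT1F* from 56657731 to 56660698 and *MT1G* from 56666730 to 56668065, the last on the minus strand. All 4 failed the filter on low counts. In the fit that kept all 23518 genes with any count, edgeR called none of them for a cytokine. *MT1F* had an unadjusted p under 0.05 for 4 cytokines, the lowest adjusted p being 0.0823 with IL-1β, and the other 3 had none. The share of the 23518 genes that passed this unadjusted threshold was not computed, so nothing is read from the 4. In the main fit that share ran from 2.45% with IL-6 to 23.5% with TNF.

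The coding sequences of these genes are alike, so reads can be shared between their rows. Estimated counts that were not whole, at a tolerance of 0.001, were found for *MT2A* and *MT1X* in 5 libraries, by at most 0.105 counts, and the sum of the pair was whole in all 5. The summed CPM of the 7 metallothioneins was 257 ± 55.3 in unstimulated cells (SD, n = 4), 1033 ± 279 with IFNγ, 856 ± 114 with IL-1β, 608 ± 78.3 with TNF and 61.9 ± 24.3 with IL-13. With the rows summed before the fit, the log2 fold change was 2.04 with IFNγ (adjusted p = 1.62e-10), 1.74 with IL-1β (adjusted p = 1.53e-08) and -2.04 with IL-13 (adjusted p = 4.09e-09). Averaged over the libraries of a group, the share of *MT2A* was lowest with IL-13, at 85.7%, and highest with IFNγ, at 94.9%.

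*SLC39A14* codes for ZIP14, an importer of zinc, iron and manganese. It lies on chromosome 8 from 22367278 to 22434129 on the plus strand, with 9 exons and a transcript of 4663 bases, and a pseudogene overlaps it on the other strand. In unstimulated cells it held 26.4, 25.5, 22.5 and 15.7 CPM. With IL-1β it held 100.4, 96.8, 115 and 94.7 CPM, and with TNF 83.3, 82.7, 112 and 125 CPM. All 8 libraries lay above the unstimulated range by a wide gap. The means were 22.5 ± 4.86 CPM in unstimulated cells, 102 ± 9.16 CPM with IL-1β and 101 ± 21.3 CPM with TNF (SD, n = 4).

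The log2 fold change of *SLC39A14* was 2.17 with IL-1β (SE 0.30, adjusted p = 9.23e-07) and 2.15 with TNF (SE 0.30, adjusted p = 9.88e-07). IFNγ also raised it, by 1.16 (SE 0.30, adjusted p = 0.00781). 3 of the IFNγ libraries held 58.1, 59.8 and 61.9 CPM, while replicate 1 held 23.4 CPM, inside the unstimulated range. Without that library the log2 fold change was 1.44. The call was lost in a fit of the 2 groups alone (1.18, adjusted p = 0.0676).

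None of the other 7 cytokines gave a call for *SLC39A14*. Its libraries ranged from 10.1 to 40.8 CPM with IL-17A, from 17.9 to 33.3 CPM with IL-22, from 18.4 to 40.0 CPM with IL-6 and from 24.8 to 38.6 CPM with IL-13. With TGF-β1 they ranged from 26.5 to 38.3 CPM and with OSM from 29.4 to 37.8 CPM, above the highest unstimulated library in both cases, with log2 fold changes of 0.57 (adjusted p = 0.323) and 0.56 (adjusted p = 0.398). IFNα gave 24.6 to 46.1 CPM and 0.55 (adjusted p = 0.305).

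*SLC39A8* codes for ZIP8, which carries zinc and manganese and is known as an NF-κB target in several cell types. It lies on chromosome 4 from 102251080 to 102431258 on the minus strand, with 9 exons and a transcript of 3152 bases, and a long non-coding RNA overlaps it on the same strand. It was the lowest of the tested genes, with 349 counts in all and 2 libraries at 0. In 31 of the 44 libraries it was above the floor of 3 counts. In unstimulated cells it held 5.39, 2.19, 5.63 and 1.37 CPM, a mean of 1.16 CPM per kb, which was above 12.7% of the tested genes.

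*SLC39A8* held 16.1, 9.28, 7.62 and 3.89 CPM with IL-1β, 0.706, 7.75, 12.8 and 13.9 CPM with TNF, and 6.70, 14.8, 6.67 and 11.5 CPM with OSM. The OSM libraries lay above the unstimulated range, and those of IL-1β and TNF overlapped it. Unstimulated replicates 2 and 4 and TNF replicate 1 were not above the floor of 3 counts. The log2 fold changes were 1.41 with OSM (95% confidence interval -0.23 to 3.05, adjusted p = 0.434), 1.31 with IL-1β (-0.32 to 2.95, adjusted p = 0.46) and 1.24 with TNF (-0.40 to 2.89, adjusted p = 0.391). No cytokine gave an unadjusted p under 0.05, and DESeq2 called none. The intervals span both no change and an increase of more than 4 times, so no change was called in these libraries, and an increase of that size is not excluded.

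*SLC30A1* codes for ZnT1, the plasma membrane exporter and itself a target of MTF1. It lies on chromosome 1 from 211571568 to 211579161 on the minus strand, with 2 exons and a transcript of 5893 bases. Its unstimulated libraries were widely spread, at 13.7, 26.2, 47.1 and 10.9 CPM. With IFNα it held 49.0, 38.8, 65.1 and 63.5 CPM, of which replicate 2 lay below the highest unstimulated library. The mean was 24.5 ± 16.5 CPM in unstimulated cells and 54.1 ± 12.5 CPM with IFNα (SD, n = 4). On the log2 scale it rose by 1.15 (SE 0.38, adjusted p = 0.0446).

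The IFNα call of *SLC30A1* was lost in 6 of 8 fits that left out a library, those without unstimulated replicate 1, 2 or 4 or without IFNα replicate 1, 3 or 4, with log2 fold changes down to 0.92. It was 1.71 without unstimulated replicate 3, and without that library the IL-1β comparison was called as well (1.38, adjusted p = 0.0255). With all libraries IL-1β gave 56.0, 48.4, 28.0 and 42.2 CPM and a log2 fold change of 0.85 (adjusted p = 0.224). The lowest mean was that of TGF-β1, 15.6 ± 6.87 CPM, and its log2 difference from unstimulated cells was -0.63 (adjusted p = 0.435).

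**Figure D3:**
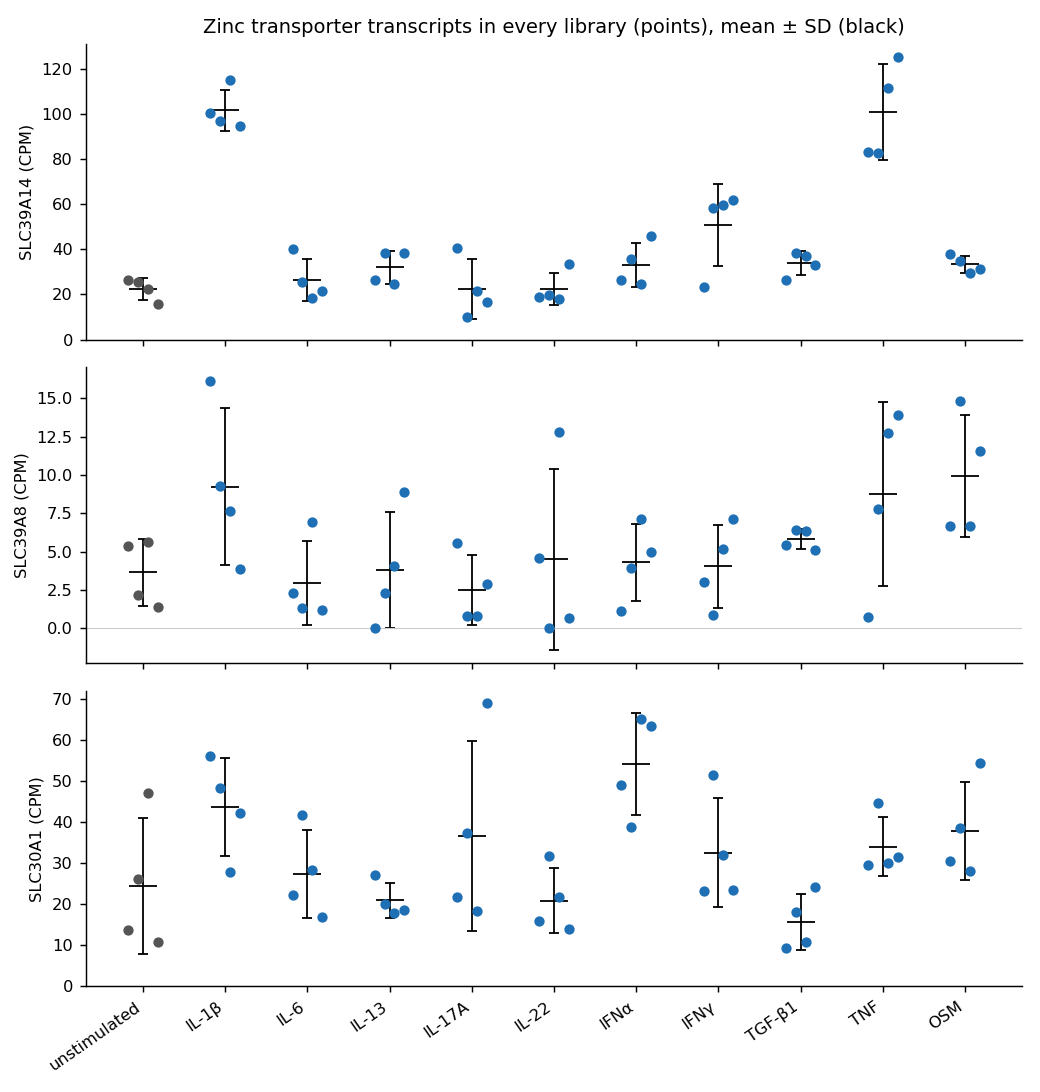
Expression in CPM (y axis) of *SLC39A14*, *SLC39A8* and *SLC30A1* in all 44 libraries, grouped by cytokine (x axis), with points for libraries and black bars for the group mean ± SD (n = 4). For *SLC39A14* the IL-1β and TNF libraries lie between 82.7 and 125 CPM, above every other library, and 1 IFNγ library lies at 23.4 CPM, apart from the other 3.

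Cytokines that share a receptor family or a signalling pathway were compared with each other in the same model. TNF and IL-1β, which both act through NF-κB, gave 0 calls among the 6 genes, where 1.15% of all tested genes were called in either direction. At an unadjusted p under 0.05 there was 1, *MT2A*, where 11.5% of all tested genes passed, and DESeq2 called 0. *SLC39A14* differed by -0.01 (TNF minus IL-1β, log2, 95% confidence interval -0.57 to 0.55, adjusted p = 0.995). *MT2A* was lower with TNF in every library, by 0.49 (SE 0.19, 95% confidence interval -0.89 to -0.10, unadjusted p = 0.0144, adjusted p = 0.267). Groups of 4 did not overlap in 7.99% of all tested genes of that comparison.

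The 2 interferons differed. *MT2A* was lower with IFNα than with IFNγ by 1.68 on the log2 scale (SE 0.20, adjusted p = 2.64e-08), with no overlap between 288 to 352 CPM and 654 to 1242 CPM. Groups of 4 did not overlap in 12.8% of all tested genes of that comparison, and 2.74% passed the fold threshold in either direction, *MT2A* among them. *MT1X* was lower by 1.33 (SE 0.42, adjusted p = 0.034), with overlapping libraries. These were the 2 called of 6, where 4.46% of all tested genes were called lower with IFNα than with IFNγ. The *MT1X* difference was lost in 5 of 8 fits that left out a library, with adjusted p up to 0.135. At an unadjusted p under 0.05 there were 4 of 6, where 20.7% of all tested genes passed. *MT1E* differed by -0.84 (adjusted p = 0.217), with no overlap between 14.3 to 15.6 CPM with IFNα and 22.6 to 32.0 CPM with IFNγ. *SLC39A14* differed by -0.61 (adjusted p = 0.232) and *SLC30A1* by 0.73 (adjusted p = 0.264), the last higher with IFNα.

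OSM and IL-6, which both signal through gp130, gave 0 calls among the 6 genes, against 2.67% of all tested genes. At an unadjusted p under 0.05 there were 2, where 12.3% of all tested genes passed, and DESeq2 called 0. *MT1X* was higher with OSM, at 12.7 to 20.7 CPM, than with IL-6, at 5.06 to 9.66 CPM, by 1.28 on the log2 scale (SE 0.43, unadjusted p = 0.00447, adjusted p = 0.116). Groups of 4 did not overlap in 10.1% of all tested genes there. *SLC39A8* was higher by 1.73 (SE 0.83, unadjusted p = 0.0427, adjusted p = 0.381). For *MT2A* the difference was 0.24 (95% confidence interval -0.16 to 0.63, adjusted p = 0.718).

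The genes whose log2 CPM was most like that of each of 4 members over the 44 libraries were listed by Pearson's r, as a description over libraries that share groups and scaling. For *MT2A* they were *ITGA2*, an integrin subunit that binds collagen (r = 0.876), *STC1*, the secreted glycoprotein stanniocalcin 1 (0.871), and *BDKRB2*, a bradykinin receptor (0.847). For *MT1X* they were *MT2A* (0.827), *STC1* (0.772) and *IER3* (0.764). For *SLC39A14* they were *RCAN1*, an inhibitor of calcineurin (0.83), *C15orf48* (0.814) and *CD83* (0.8). For *SLC39A8* the highest values were lower: *NELFE* (0.551), *TMEM208* (0.543) and *VCP* (0.532).

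Over the 11 group means in place of the libraries, 2 of the 3 names remained for *MT2A*, 1 for *MT1X* and 0 for *SLC39A14* and *SLC39A8*. *MT1E* and *MT2A* had r = 0.812 over the libraries. Within groups, as deviations from the group means, r was 0.468 for *MT1X* with *MT2A*, 0.423 for *MT1E* with *MT2A* and -0.07 for *SLC39A14* with *MT2A*. For *MT1E* with *MT1X* it was 0.124. These values describe libraries that share sequencing depth and scaling.

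The rest of the metal-handling genes were taken from lists chosen with earlier results of these data known. The lists held 60 genes, of which 59 were row symbols and 31 were tested. 15 were called for at least 1 cytokine and 5 of them passed the fold threshold. Of all tested genes, 27.4% were called for at least 1 cytokine and 11.6% passed the threshold. For the listed genes, the dependence of a call on single libraries was not examined. Among 7 tested zinc importers other than ZIP8 and ZIP14, 1 was called lower with IL-1β, 1 lower with IFNγ and 1 higher with IL-13, where 3.92%, 5.13% and 1.53% of all tested genes were called in that direction. *SLC39A10*, coding for ZIP10, was the one that fell, from 118 ± 37.2 CPM to 48.7 ± 8.53 CPM with IL-1β (log2 fold change -1.27, adjusted p = 0.00754) and to 56.0 ± 19.2 CPM with IFNγ (-1.07, adjusted p = 0.0246). The IFNγ libraries of *SLC39A10* overlapped the unstimulated ones. Of 5 tested exporters other than ZnT1, 1 was called, *SLC30A6*, which rose by 1.07 with IL-1β (adjusted p = 0.044), with overlapping libraries. With IL-1β 3.46% of all tested genes were called higher.

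*MTF1*, the metal-sensing factor itself, had few counts, 289 over all libraries. No cytokine gave it an unadjusted p under 0.05. Its log2 fold change lay between -1.20 (IL-22) and 1.07 (TGF-β1), with an SE of 0.91 and 0.79. The 5 other metallothionein genes were not tested: *MT3* had 8 counts in 2 libraries, and *MT1B*, *MT1H*, *MT1HL1* and *MT4* were at 0. Of 9 metallothionein pseudogenes 8 were row symbols, and *MT1JP* with 12 counts and *MT1P1* with 1 were the ones above 0.

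Iron-handling genes held most of the remaining calls. Of 11 tested, 5 rose and 1 fell with IL-1β, 4 rose and 2 fell with TNF, 1 rose and 3 fell with IFNα, and 1 rose and 2 fell with TGF-β1. With IL-13, IFNγ and OSM 1 rose each, where 1.53%, 5.52% and 1.42% of all tested genes rose. Of all tested genes, 3.46% rose and 3.92% fell with IL-1β, 5.37% and 6.09% with TNF, 4.99% and 4.86% with IFNα, and 2.61% and 3.08% with TGF-β1. *SLC11A2*, coding for the iron importer DMT1, rose from 12.6 ± 5.33 to 82.2 ± 7.78 CPM with IL-1β (log2 fold change 2.68, adjusted p = 8.64e-05) and to 44.2 ± 21.5 CPM with TNF (1.80, adjusted p = 0.00793). *SLC40A1*, coding for ferroportin, the iron exporter, fell from 31.7 ± 16.3 CPM to 7.77 ± 5.91 CPM with TNF (-1.98, adjusted p = 0.00312) and to 8.68 ± 1.18 CPM with TGF-β1 (-1.86, adjusted p = 0.0132). Both of these groups overlapped the unstimulated libraries, the lowest of which held 8.75 CPM. With IL-1β *SLC40A1* was at 15.1 ± 3.90 CPM, with no call.

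*STEAP1*, of a family of metalloreductases, rose with 6 cytokines, by 1.53 with TGF-β1 (adjusted p = 0.000727) up to 2.60 with IL-1β (adjusted p = 1.3e-08) on the log2 scale. *STEAP2* of the same family rose by 1.64 with IL-1β (adjusted p = 0.00133). *FTH1*, the ferritin heavy chain, rose with TNF by 1.44 (adjusted p = 5.81e-08), with IL-1β by 0.90 (adjusted p = 0.000345) and with IFNγ by 0.54 (adjusted p = 0.0381). The IFNγ libraries of *FTH1* overlapped the unstimulated ones. *CYBRD1*, a ferric reductase, fell with 4 cytokines, most with TNF (-1.39, adjusted p = 1.15e-06). *TFRC*, the transferrin receptor, rose by 0.76 with IL-1β (adjusted p = 0.0114) and fell by 0.96 with IFNα (adjusted p = 0.00125).

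Of 7 tested copper genes, 1 rose with IL-1β, 1 with IFNγ and 2 with TNF, where 3.46%, 5.52% and 5.37% of all tested genes rose. *COX17*, a copper chaperone of mitochondria, rose with IL-1β (0.69, adjusted p = 0.00297) and TNF (0.90, adjusted p = 8.86e-05), and *SLC31A1*, coding for the copper importer CTR1, with IFNγ (0.79, adjusted p = 0.00783). The IFNγ libraries of *SLC31A1* overlapped the unstimulated ones. *COX17*, *SLC31A1* and *SLC39A6* (ZIP6) fall outside the rule for named genes and were named after their values were seen. *SLC39A6* is the zinc importer that rose with IL-13, by 0.56 (adjusted p = 0.0407). *SLC31A2*, coding for the copper transporter CTR2, rose from 8.53 ± 2.23 to 26.9 ± 9.61 CPM with TNF (log2 fold change 1.65, adjusted p = 0.03).

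**Figure D4:**
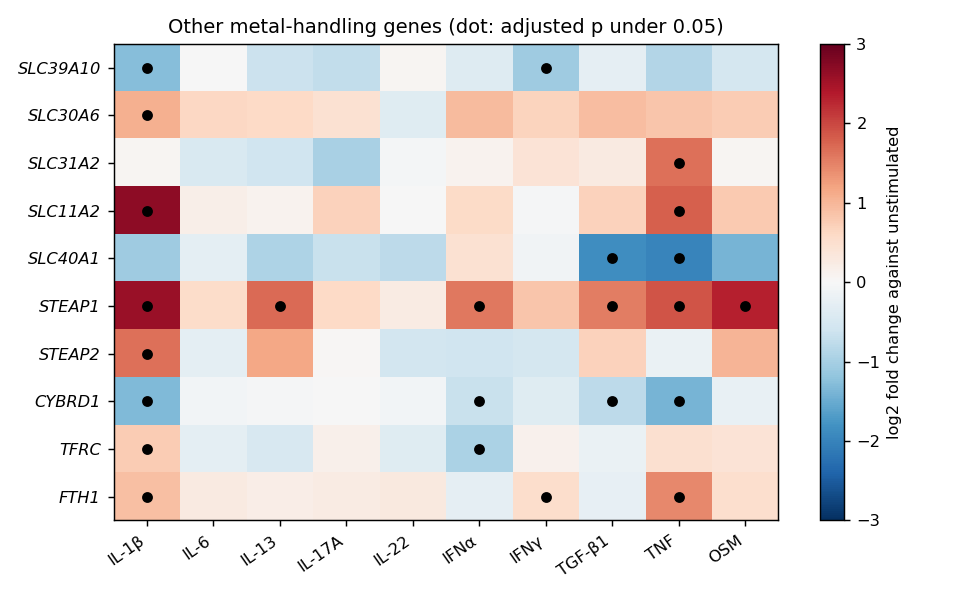
Log2 fold change against unstimulated cells (colour, red higher and blue lower) of the 10 other metal-handling genes with the largest called change (y axis) for each cytokine (x axis), with a dot where the adjusted p was under 0.05. *SLC11A2* reaches 2.68 with IL-1β and *SLC40A1* falls to -1.98 with TNF.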

How the data were processed

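RNA of Ccd-18Co fibroblasts was sequenced in 44 libraries (NEBNext Ultra II, a kit whose strand setting is not given in the sources used here). Per the labels, the authors used FastQC 0.11.9, MultiQC 1.14 and kallisto 0.48.0 with hg38, and they deposited 1 table of estimated counts per gene symbol. The transcriptome release is not given in the sources used here. Of the deposited values, 5.58% were not whole. They were rounded.

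Genes were filtered with filterByExpr (9513 of 40663 kept), scaled by TMM and tested with edgeR 4.0.16 (R 4.3.3) by quasi-likelihood with 1 coefficient per group over all 44 libraries, with the Benjamini-Hochberg adjustment within each comparison. The common biological coefficient of variation was 0.331. Each SE was computed from the log2 fold change and the F statistic of its quasi-likelihood test. The 95% confidence intervals were built from those SEs. They are approximate, most of all where the fold change is near 0. DESeq2 1.42.0, other filters, other scaling, fits of 2 groups, a replicate term and leaving out each library were alternatives. CPM are on TMM-scaled totals, and CPM per kb use GENCODE 44 transcript lengths. Correlations used log2 CPM with a prior count of 2. None of the 66 replicate pairs was identical or within sampling noise (lowest chi-square per degree of freedom 3.21). The edgeR step was run on simulated counts with 1 spread common to all genes, which real genes need not share. The outcome is not given here, so that run is no support for the calls.

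Groups were taken from the sample titles. The 10 genes, the other gene lists and the comparisons were chosen with earlier results of these data known. Named genes were all 10 members, up to 10 other metal-handling genes with the largest called change, and the 3 genes most like *MT2A*, *MT1X*, *SLC39A8* and *SLC39A14*. Which of 2 RNA extraction kits each library had is not given in the labels.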

Additional observations from a re-analysis of the deposited data

Results flagged for a closer look

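In 5 of 66 groups of 4 libraries (6 tested genes in 11 groups), 1 library stood apart from the other 3 by Dixon's criterion at the 95% level, where chance alone gives about 1 in 20, or 3.3 of 66. *SLC39A14* was at 23.4 CPM in IFNγ replicate 1, against 58.1 to 61.9 CPM in the other 3. *SLC39A14* was at 33.3 CPM in IL-22 replicate 4, against 17.9 to 19.6 CPM. *MT1E* was at 35.0 CPM in IL-1β replicate 4, against 23.9 to 24.2 CPM, and this library also held the highest *MT1X* and *MT1F* counts of the series. *MT2A* was at 352 CPM in IFNα replicate 3, against 288 to 295 CPM. *SLC30A1* was at 44.8 CPM in TNF replicate 2, against 29.7 to 31.6 CPM.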

How the results depend on the processing

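Of the 17 calls (14 higher, 1 lower and 2 between interferons), 9 were kept under every alternative counted for them and 8 were lost under at least 1. Of the fits without a library, only those of the 2 groups compared were counted for a call. The fold threshold was not counted among these alternatives. No direction of a called gene reversed. The 9 were *MT2A* with IL-1β, IL-13, IFNγ, TGF-β1 and TNF and between the interferons, *MT1X* with IL-1β, and *SLC39A14* with IL-1β and TNF. With the fold threshold added, 5 of the 14 higher calls and 1 of the 2 interferon calls remained, and over all tested genes 940 of 2427 higher and 908 of 2753 lower calls. Keeping all genes with any count gave 10 higher calls and 1 interferon call, and fits of only the 2 groups compared also gave 10 and 1. In both, 5 of 17 calls were lost, and the cause was not tested. Over all genes of each fit the higher calls were 2377 and 1765, against 2427 in the main fit. DESeq2's size factors in edgeR, the stricter filter and the replicate block lost 0 of 17, and DESeq2's Wald test kept 17 and added *MT2A* with IL-22, 15 higher in all. Leaving out 1 library in turn gave 8 to 15 higher calls, 1 to 1 lower and 1 to 2 interferon calls. The lowest, 8, came without unstimulated replicate 2, where 1778 pairs were called higher over all genes of that fit. 1 interferon call came without IFNα replicate 1, 2 or 3 or IFNγ replicate 3 or 4. Replicate numbers were not taken as pairs: over 40 pairs r was -0.087 to 0.281 (median 0.032), and for none of the 10 cytokines were all pairs over 0.1. Of the 40, 18 correlated best with their own number, where an even spread over 4 numbers gives 10, which is a hint from the data and not the design. The replicate block gave 14 higher, 1 lower and 2 interferon calls. Over all libraries *MT1A*, *MT1F*, *MT1G* and *MT1M* had 3 to 41 counts each, which limits what can be said of them.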
